A study of Mus musculus with 35 samples.

Results

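The data are 10 libraries of brown adipose tissue from mice with a Suv420h double knockout, 5 from mice on high fat diet and 5 from mice on normal diet, out of 35 libraries in the series. They were chosen by their titles, which give genotype, diet, experiment and replicate. The high fat group was female knockout mice aged 21 weeks that had eaten a diet with 45 kJ% fat for 14 weeks, and the normal diet group was female knockout mice of the same age. Feeding was ad libitum in both. A further 10 libraries, 5 from control mice on high fat diet and 5 from control mice on normal diet, of the same sex, age and experiment, entered the fit and are used to ask whether the response to diet differed with genotype. The labels give no exons deleted, no Cre driver and no strain, and nothing in them says that the replicates of a group came from separate animals, so p-values measure how much these samples vary, which may be technical variation.

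Brown adipose tissue burns fatty acids in its many mitochondria to make heat. Uncoupling protein 1 in the inner mitochondrial membrane lets protons return without ATP synthesis, and noradrenaline, acting through the stimulatory G protein and cyclic AMP, switches the process on. The tissue also makes fatty acids from glucose, and dietary fat is known to lower the expression of the enzymes of that synthesis. Suv420h1 and Suv420h2, annotated today as Kmt5b and Kmt5c, are the methyltransferases that add the second and the third methyl group to lysine 20 of histone H4. The comparison of the 2 diets within the knockout asks which transcripts of this tissue differed with dietary fat in mice labelled as knockout for these enzymes.

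Each library was sequenced as 3′ tags, so counts are of tags from the 3′ ends of polyadenylated transcripts. Total counts were 5749785 to 7558085 in the high fat libraries and 3616882 to 6738518 in the normal diet libraries. Levels are given in CPM, a gene's counts relative to the size of its library after scaling by the trimmed mean of M values (TMM). Each gene's levels are compared between libraries and not with those of other genes. The brown fat markers Ucp1, Cidea, Cox7a1, Cox8b, Pparg, Adipoq, Fabp4 and Plin1 were detected in all 10 libraries. High fat replicate 2 stood apart in part of them, with Fabp4, a fatty acid binding protein, at 16781, 3729.6, 19430.0, 29061 and 25497 CPM in high fat replicates 1 to 5. Mitochondrially encoded transcripts took 16.7% to 26.05% of the counts on high fat diet and 17.7% to 19.1% on normal diet. In bulk tissue, fewer cells of a type and less RNA per cell cannot be told apart.

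The counts do not check the genotype. Suv420h1 (GRCm38, chromosome 19, 3767421 to 3818303) stood at 32.5, 51.3, 37.7, 36.4 and 37.5 CPM in the high fat libraries, against 31.2, 43.0, 41.9, 27.3 and 54.2 CPM in the normal diet libraries. Its levels overlapped between the diets (log2 fold change -0.02, SE 0.24, adjusted p = 0.994), and the control groups averaged 31.7 CPM on high fat diet and 42.4 CPM on normal diet. Suv420h2 (chromosome 7, 4740115 to 4747514) stood at 4.89, 16.6, 10.8, 9.81 and 10.1 CPM in the high fat libraries, against 20.8, 21.5, 10.2, 16.7 and 20.4 CPM in the normal diet libraries (log2 fold change -0.78, SE 0.34, adjusted p = 0.478), and at a mean of 17.6 CPM in control libraries on high fat diet and 49.9 CPM in control libraries on normal diet. The deleted parts of both genes are not given, so a 3′ tag may lie outside them, and knockout here means labelled as knockout.

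Skeletal muscle transcripts went with the diets. The summed level of 15 genes that define skeletal muscle, such as the fast myosin heavy chain Myh4 and creatine kinase Ckm, was 14.6 to 22.0 CPM in the 5 high fat libraries, with 4 or 5 of the 15 genes at 0. In the normal diet libraries it was 17.1 CPM in replicate 5, with 8 of the 15 genes at 0, and 148.0 to 1891 CPM in the other 4, with 0 at 0. Myh4 had 0.564, 0.536, 0.154, 0.681 and 0.336 CPM in the high fat libraries, against 73.2, 15.7, 54.0, 222 and 0.618 CPM in the normal diet libraries. Of 89 tested genes of a longer skeletal muscle list, 83 had a negative fold change on high fat diet, 0 were called and the median log2 fold change was -4.65. Normal diet replicate 5 is thus the 1 normal diet knockout library with as little muscle RNA as the high fat libraries. The part of muscle RNA in the results was not tested beyond the values given beside them: a fit with a muscle score as covariate, and a fit without the 10 libraries of the experiment whose score was above 1, which leaves 5 high fat knockout libraries, 1 normal diet knockout library (replicate 5) and 4 high fat control libraries.

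**Figure D1:**
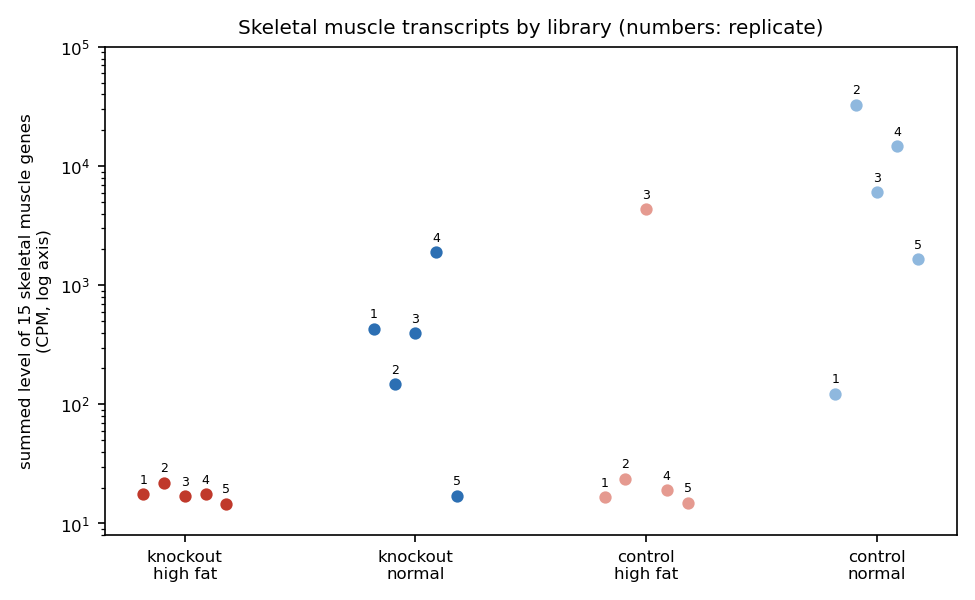
Summed level of 15 genes that define skeletal muscle, in CPM on a log axis, for each library of the 4 groups, with the replicate number beside each point. The 5 high fat knockout libraries lie at 14.6 to 22.0 CPM, and 4 of the 5 normal diet knockout libraries lie above them, with replicate 5 at 17.1 CPM.

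Few transcripts were called between the diets in the knockout by the main fit. More were called with DESeq2 and with the knockout libraries alone, as given in the last section. Of 12082 genes tested, 45 (0.372%) passed an adjusted p of 0.05, 22 (0.182%) of them higher and 23 (0.19%) lower on high fat diet, and 1113 genes had an unadjusted p below 0.05. Called genes moved by at least 0.78 on the log2 scale, and the median log2 fold change of all genes was -0.03. In 42 of the 45 the high fat and normal diet libraries did not overlap, against 4.28% of all genes tested, and this count shares its contrast with the call. The higher genes included the mitochondrial carrier Slc25a34, the fatty acid binding protein Fabp3, the fatty acid elongase Elovl3, the malonyl-CoA decarboxylase Mlycd, the stimulatory G protein subunit Gnas and the elastin crosslinking enzyme Loxl1. The lower genes included the first enzymes of fatty acid and of sterol synthesis after the branch from acetyl-CoA and farnesyl diphosphate (Acaca, Fdft1), the neurotrophin receptor Ntrk3 and a mitochondrial tRNA (mt-Tc). Leaving out 1 library changed the count by over 1.5 times in 8 cases, to 6, 26, 11 and 13 genes without high fat replicate 1, 2, 4 and 5, and to 19, 14, 29 and 28 genes without normal diet replicate 2, 3, 4 and 5. Elovl3, Slc25a34, Loxl1 and Fabp3 were called in all 20 fits that left out 1 library, and the other called genes lost the call in at least 1 of them. With the muscle score as covariate 1 gene was called, Loxl1. Without the libraries that carried muscle, which leaves 1 normal diet knockout library, all 45 kept their sign. In the 42 genes without overlap that library already lay beyond every high fat library, so their sign was largely fixed in advance.

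**Figure D2:**
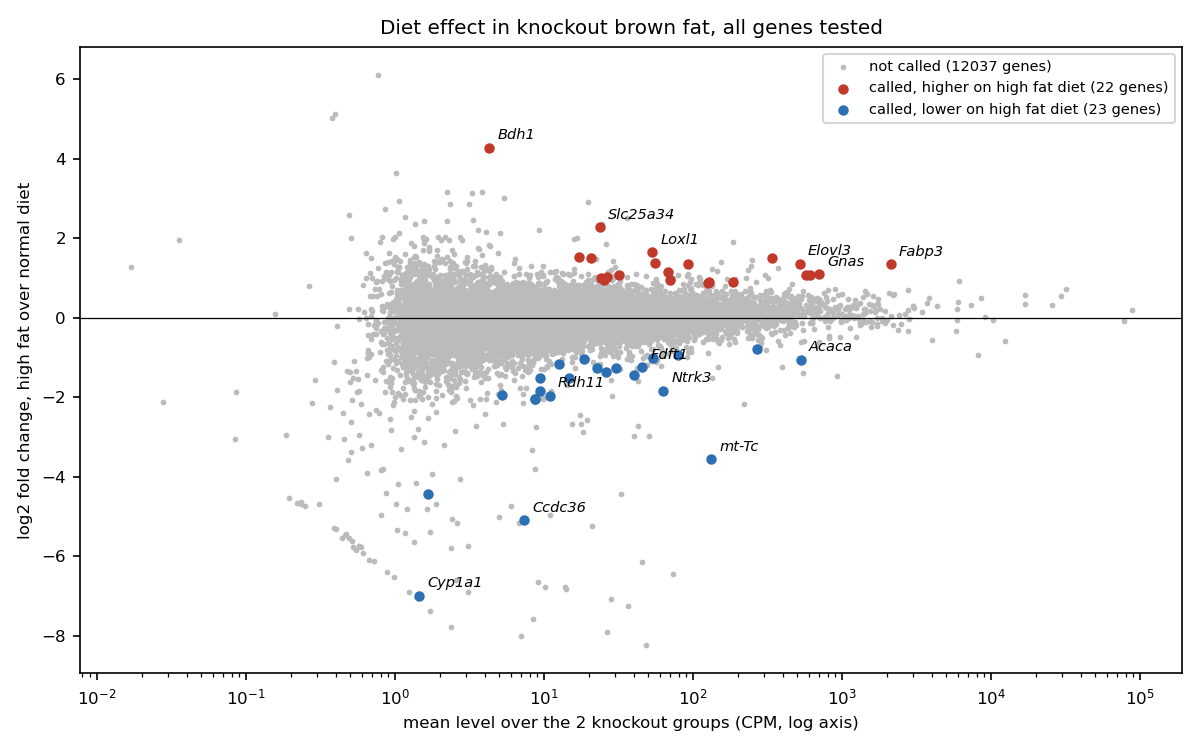
Log2 fold change of high fat over normal diet in knockout libraries against the mean level of the gene (CPM, log axis), 1 point per gene tested. Red points are the 22 called genes higher on high fat diet, blue points the 23 called genes lower, and the fan of uncalled genes below -4 includes skeletal muscle genes such as Myh4 (log2 fold change -7.26).

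Slc25a34 (chromosome 4, 141618824 to 141623821), with the largest fold change of the 4 genes called in every such fit, belongs to the family of carriers of the inner mitochondrial membrane. It had 53.6, 21.6, 34.7, 45.2 and 41.5 CPM in the high fat libraries, against 6.19, 9.95, 4.45, 10.1 and 9.47 CPM in the normal diet libraries. Every high fat library lay above every normal diet library, and the lowest of them had over 2 times the level of the highest on normal diet (log2 fold change 2.28, SE 0.39, adjusted p = 0.0124). Its log2 fold change was 2.29 with the muscle covariate and 2.05 without the libraries that carried muscle. The promoter (250 bases before to 50 after the start) is shown because it holds AGGTCA, a single copy of a repeat that nuclear receptors bind, read on the other strand and in capitals below, beginning 119 bases before the start (chr4:141623785-141624084, minus strand, RefSeq, GRCm38.p6, written 5′ to 3′ along the gene).
Slc25a34: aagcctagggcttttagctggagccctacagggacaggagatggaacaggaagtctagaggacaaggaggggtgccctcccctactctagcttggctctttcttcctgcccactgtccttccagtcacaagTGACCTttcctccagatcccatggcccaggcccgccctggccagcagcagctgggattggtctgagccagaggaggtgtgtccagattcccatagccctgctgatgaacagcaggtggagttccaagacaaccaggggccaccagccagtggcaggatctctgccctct
On either strand, AGGTCA occurs in 16.3% of 32851 mouse promoters of this length. The 33 called genes with a promoter in the table have 49 promoters, of which 8, from 7 genes, hold it, close to the share over all promoters. The exact DR1 element repeats this motif with 1 base between and is known as the site of PPAR and its partner RXR. It was in 0 of the 49 and in 0.0396% of all promoters. Elovl3 and Fdft1 had no promoter in the table, so no motif was searched for in them.

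Fabp3 (chromosome 4, 130308595 to 130315463) encodes the heart-type protein that carries fatty acids through the cytosol. It had 3416, 4210.2, 2271, 2536 and 2731 CPM in the high fat libraries, against 1015, 584, 1372, 1586 and 1408 CPM in the normal diet libraries. All 5 high fat libraries were above all 5 normal diet libraries (log2 fold change 1.35, SE 0.23, adjusted p = 0.0124), with 1.26 under the muscle covariate and 1.11 without the libraries that carried muscle. Elovl3 (chromosome 19, 46131897 to 46135694) elongates very long chain fatty acids and is known as a cold-induced gene of brown fat. Its levels were 833, 990.4, 618, 738 and 553 CPM in the high fat libraries, against 332, 180.2, 250, 354 and 333 CPM in the normal diet libraries. The groups did not overlap, and high fat replicate 2, low in Fabp4, was the highest for both genes (log2 fold change 1.36, SE 0.23, adjusted p = 0.0122). The fold change of Elovl3 was 1.28 with the covariate and 1.17 without the libraries that carried muscle. Both genes share exon bases with genes on the opposite strand, Fabp3 with Zcchc17 and Gm10570 and Elovl3 with Pitx3, and the strand setting of the counting is not given. Fabp3 also has an annotated pseudogene, Fabp3-ps1.

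Mlycd, the decarboxylase that removes malonyl-CoA, the inhibitor of fatty acid entry into mitochondria, was chosen after its values were seen. It had 284, 298, 178, 225 and 221 CPM in the high fat libraries, against 152, 133, 121, 119 and 121 CPM in the normal diet libraries, again without overlap (log2 fold change 0.90, SE 0.18, adjusted p = 0.023). Bdh1, which interconverts the ketone bodies acetoacetate and 3-hydroxybutyrate, was near the detection limit on normal diet. Its levels were 9.78, 1.97, 14.0, 5.18 and 9.92 CPM in the high fat libraries, against 0.282, 0, 0, 0.554 and 1.03 CPM in the normal diet libraries, which made it the called gene with the largest rise (log2 fold change 4.29, SE 0.87, adjusted p = 0.023), and it was chosen after its values were seen. Adtrp, an enzyme that cleaves fatty acid esters of hydroxy fatty acids, had 441, 742, 318, 483 and 504 CPM in the high fat libraries, against 262, 165, 125, 158 and 165 CPM in the normal diet libraries. Its groups did not overlap (log2 fold change 1.51, SE 0.29, adjusted p = 0.0154).

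Genes of mitochondrial fatty acid oxidation had mostly positive fold changes, and none passed the test. Of 28 tested genes of the list, 0 were called, 27 had a positive fold change, 10 had an unadjusted p below 0.05 and a higher level on high fat diet, and the median log2 fold change was 0.40, against -0.03 over all genes. Here and below, uncalled members named from the lists, apart from the core genes of brown fat and lipid synthesis (Ucp1, Pparg, Ppargc1a, Cidea, Dio2, Adipoq, Lep, Fasn and Scd1), were chosen after their values were seen. Cpt1b, the muscle and brown fat form of the gate of fatty acid entry, had 546, 804, 461, 564 and 573 CPM in the high fat libraries, against 378, 284, 285, 312 and 370.2 CPM in the normal diet libraries. These values did not overlap, but the gene missed the threshold (log2 fold change 0.86, SE 0.21, adjusted p = 0.0702). Acadl, the long chain acyl-CoA dehydrogenase, averaged 2639.5 ± 416 CPM on high fat diet, against 1763 ± 202 CPM on normal diet (SD, n = 5 each), without overlap and not called (log2 fold change 0.58, SE 0.20, adjusted p = 0.276). Decr1, which handles unsaturated fatty acids, averaged 781 ± 32.3 CPM on high fat diet, against 573 ± 60.8 CPM on normal diet, also without overlap and not called (adjusted p = 0.296). The carnitine carrier Slc25a20 averaged 385 ± 56.4 CPM on high fat diet, against 272 ± 25.4 CPM on normal diet (adjusted p = 0.317), and the scavenger receptor Cd36, which takes up fatty acids, had a log2 fold change of 0.53 (adjusted p = 0.33). Pdk4, the kinase that blocks the use of glucose, overlapped widely, with 144, 72.7, 175, 287 and 423 CPM in the high fat libraries, against 99.1, 227, 117, 155 and 87.3 CPM in the normal diet libraries (log2 fold change 0.68, SE 0.37, adjusted p = 0.62). In the peroxisome list 26 of 34 genes were positive and 0 were called. Its largest value was that of Ehhadh, the bifunctional enzyme of peroxisomal oxidation, which had 15.6, 8.40, 20.1, 59.1 and 103 CPM in the high fat libraries, against 8.16, 22.3, 1.06, 4.98 and 4.32 CPM in the normal diet libraries. High fat replicates 4 and 5 were far above the rest, and the groups overlapped (log2 fold change 2.36, SE 0.71, adjusted p = 0.216).

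Genes of fatty acid synthesis had mostly negative fold changes. In the lipogenesis list 23 of 28 tested genes had a negative fold change, 8 had an unadjusted p below 0.05 and a lower level on high fat diet, and the median log2 fold change was -0.31. Acaca (chromosome 11, 84129672 to 84401651), the acetyl-CoA carboxylase that makes malonyl-CoA for synthesis, was the 1 called member. It had 331, 388, 503, 255 and 236 CPM in the high fat libraries, against 716, 735, 673, 741 and 686 CPM in the normal diet libraries. The 5 normal diet libraries were close to each other and all above the highest high fat library (log2 fold change -1.05, SE 0.24, adjusted p = 0.0464). The fold change of Acaca was -1.01 with the muscle covariate and -1.0 without the libraries that carried muscle. Its call was kept in only 7 of the 20 fits without 1 library and in 5 of 11 other settings. The highest adjusted p with 1 library left out was 0.151, without high fat replicate 4. Other enzymes of the path did not pass the test. ATP citrate lyase, Acly, which supplies acetyl-CoA, had 440.3, 325, 892, 379 and 416 CPM in the high fat libraries, against 739, 1353, 1518, 1470.2 and 1653 CPM in the normal diet libraries, and only high fat replicate 3 reached into the normal diet range (log2 fold change -1.46, SE 0.35, adjusted p = 0.0781). Scd1, the main desaturase, had 5368, 7198, 2638, 6032 and 6665 CPM in the high fat libraries, against 9371, 14978, 7169.7, 9629.8 and 12057 CPM in the normal diet libraries. The highest high fat and the lowest normal diet library differed by less than 1% (log2 fold change -0.93, SE 0.23, adjusted p = 0.0752). Fasn, the fatty acid synthase, had 7864, 15294, 13889.8, 6154 and 6164 CPM in the high fat libraries, against 16367, 14208, 13696, 10985 and 18281 CPM in the normal diet libraries. High fat replicates 2 and 3 lay within the normal diet range (log2 fold change -0.57, SE 0.28, adjusted p = 0.557). Acss2, which activates acetate, averaged 69.3 ± 25.2 CPM on high fat diet, against 197 ± 80.0 CPM on normal diet (SD, n = 5 each), with overlap (adjusted p = 0.101), and malic enzyme, Me1, averaged 303 ± 174 CPM on high fat diet, against 796 ± 271 CPM on normal diet (adjusted p = 0.319). Elovl6, which elongates palmitate, averaged 553 ± 118 CPM on high fat diet, against 849.7 ± 114 CPM on normal diet, without overlap and not called (adjusted p = 0.377). Srebf1, the transcription factor known to drive these enzymes, had a log2 fold change of -0.28 (adjusted p = 0.889), and Thrsp, a lipogenic cofactor, of -0.33 (adjusted p = 0.785).

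**Figure D3:**
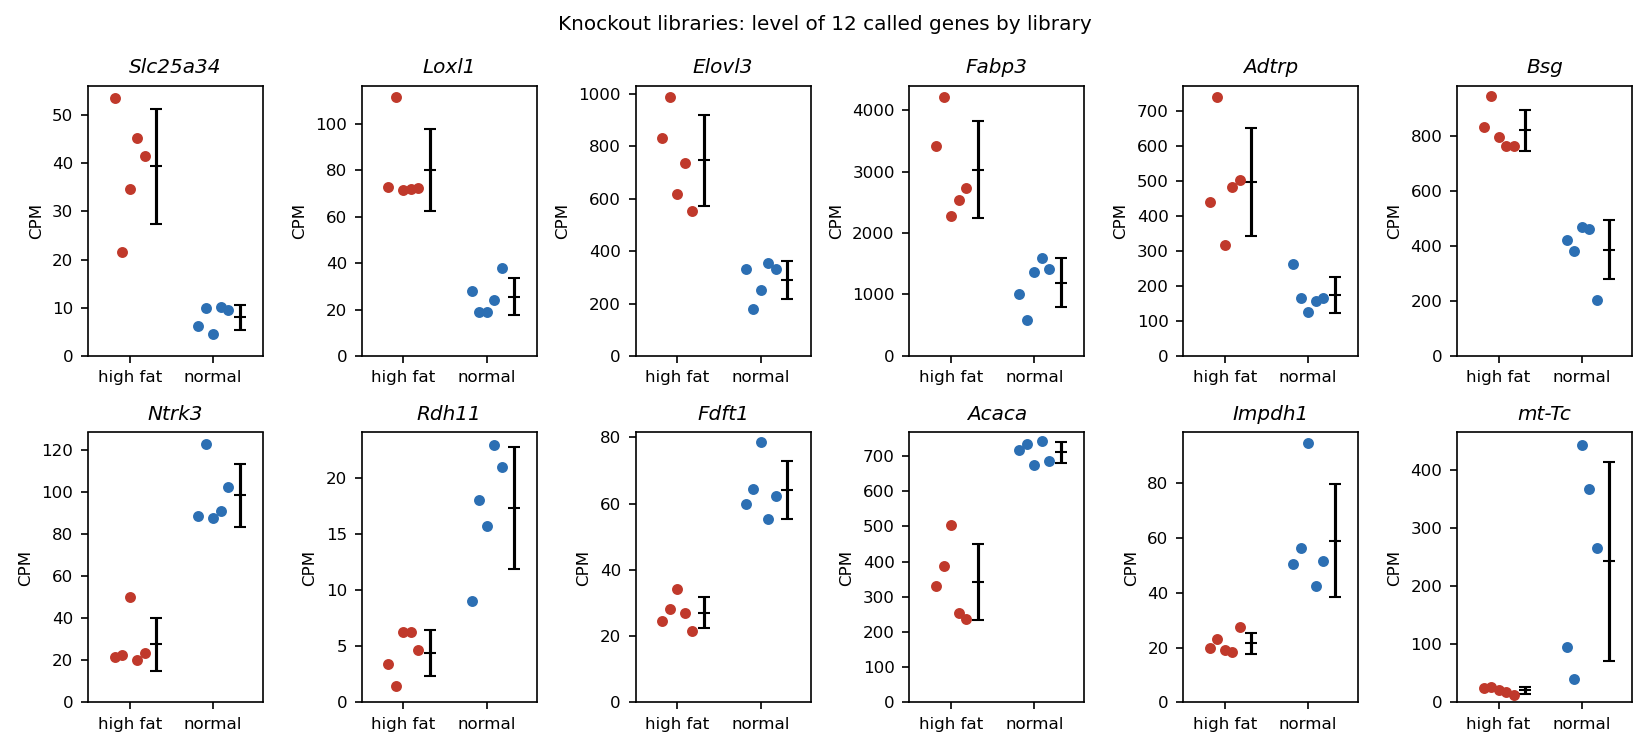
Level in CPM of 12 called genes in each knockout library, high fat at the left of normal diet in every panel, with the mean and SD of 5 libraries beside the points. The 6 genes of the upper row, from Slc25a34 to Bsg, are higher and the 6 of the lower row, from Ntrk3 to mt-Tc, lower on high fat diet, without overlap in any panel.

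Sterol genes had fold changes of both signs. Fdft1 (chromosome 14, 63145150 to 63179578), squalene synthase, the first step that commits to sterols, had 24.4, 28.2, 34.3, 26.8 and 21.7 CPM in the high fat libraries, against 60.0, 64.4, 78.6, 55.2 and 62.2 CPM in the normal diet libraries. Every normal diet library was above every high fat library (log2 fold change -1.24, SE 0.24, adjusted p = 0.0187), and the fold change was -1.38 with the covariate and -1.19 without the libraries that carried muscle. Fdft1 shares exon bases with Ctsb on the opposite strand. It was the 1 called gene of 23 tested in the cholesterol synthesis list, of which 13 had a negative and 10 a positive fold change (median -0.16). Pmvk, a kinase of the mevalonate path, averaged 42.2 ± 5.05 CPM on high fat diet, against 82.0 ± 21.3 CPM on normal diet (SD, n = 5 each; adjusted p = 0.102). Hmgcs1, the synthase at the head of the path, pointed the other way, with 1116, 735, 1185, 976 and 975.2 CPM in the high fat libraries, against 712, 436, 548, 659 and 694 CPM in the normal diet libraries. Its groups did not overlap, and it was not called (log2 fold change 0.71, SE 0.19, adjusted p = 0.109).

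Genes of retinoid enzymes were called in both directions. Rdh11 (chromosome 12, 79174337 to 79192293), a reductase of retinal, had 3.38, 1.43, 6.30, 6.27 and 4.71 CPM in the high fat libraries, against 9.01, 18.1, 15.7, 22.97 and 21.0 CPM in the normal diet libraries. All high fat libraries were below all normal diet libraries (log2 fold change -1.96, SE 0.37, adjusted p = 0.0154). Dhrs9, a retinol dehydrogenase, had 48.3, 34.3, 20.6, 27.1 and 23.5 CPM in the high fat libraries, against 7.60, 10.7, 9.53, 20.2 and 5.56 CPM in the normal diet libraries. Its highest normal diet library, replicate 4, was just under the lowest high fat library (log2 fold change 1.5, SE 0.31, adjusted p = 0.023). A promoter of Rdh11 is shown because it holds AGGTCA as well as the E-box CACGTG, in capitals (chr12:79190912-79191211, minus strand, RefSeq, GRCm38.p6).
Rdh11: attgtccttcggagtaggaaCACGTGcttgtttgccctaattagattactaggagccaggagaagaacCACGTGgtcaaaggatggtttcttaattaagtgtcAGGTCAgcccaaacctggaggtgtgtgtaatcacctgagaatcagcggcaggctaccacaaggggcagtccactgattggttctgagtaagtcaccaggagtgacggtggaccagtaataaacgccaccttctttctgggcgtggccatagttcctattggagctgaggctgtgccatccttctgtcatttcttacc
The E-box is in 7.15% of the 32851 promoters and in 6 of the 49 promoters of called genes, from 4 genes, Rdh11, Adtrp, Ivns1abp and Pdzk1ip1. Of the other motifs searched on both strands, TCACNCCAC, a sterol response element, was in 0 of the 49 and 1.24% of all promoters. TGACGTCA, the cyclic AMP response element, was in 0 of the 49 and 1.79% of all, and CCAAT in 17 of the 49 and 37.4% of all. The 0 for the sterol response element does not cover Fdft1, which had no promoter in the table.

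Among the genes of heat production, Ucp1 stood just outside the threshold. It had 11089, 7054, 7167, 7176 and 7367 CPM in the high fat libraries, against 5706, 2567, 4055, 4633 and 4123 CPM in the normal diet libraries. All high fat libraries were above all normal diet libraries, and high fat replicate 1 was the highest by far (log2 fold change 0.92, SE 0.21, adjusted p = 0.0531). The adjusted p was below 0.05 in 6 of 11 other settings and in 4 of the 20 fits without 1 library, and its log2 fold change was 0.78 with the muscle covariate. In the brown fat thermogenesis list 20 of 27 tested genes had a positive fold change, 1 was called (Elovl3), and the median was 0.23. Of the core genes, Cidea, Pparg, Ppargc1a, Dio2, Adipoq and Lep overlapped between diets. Cidea, a lipid droplet protein of brown fat, had 7227, 11347, 6765, 7009 and 8222 CPM in the high fat libraries, against 7396, 5584, 7767, 5735 and 5985 CPM in the normal diet libraries (log2 fold change 0.32, SE 0.23, adjusted p = 0.751). Pparg, the nuclear receptor of fat cell identity, had 66.6, 23.9, 71.2, 79.4 and 82.9 CPM in the high fat libraries, against 46.2, 62.9, 64.2, 49.1 and 76.4 CPM in the normal diet libraries, with high fat replicate 2 the lowest of all (log2 fold change 0.12, SE 0.29, adjusted p = 0.959). Ppargc1a, a coactivator of mitochondrial genes, averaged 162 ± 43.5 CPM on high fat diet, against 192 ± 126 CPM on normal diet (SD, n = 5 each; adjusted p = 0.93). Dio2, which activates thyroid hormone, averaged 241 ± 117 CPM on high fat diet, against 277 ± 168 CPM on normal diet (adjusted p = 0.953). Adipoq, the fat cell hormone adiponectin, averaged 1287 ± 255 CPM on high fat diet, against 1397 ± 167 CPM on normal diet (adjusted p = 0.917). Lep, the hormone leptin, was at most 13.2 CPM in any knockout library (adjusted p = 0.984). In the PPAR-gamma and adipocyte identity list 0 of 30 tested genes were called (median 0.11).

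Gnas (chromosome 2, 174284320 to 174346744), the alpha subunit of the stimulatory G protein, was called. It had 922, 582, 814, 1085 and 1359 CPM in the high fat libraries, against 458, 376, 414, 510.4 and 457 CPM in the normal diet libraries. Each high fat library was above each normal diet library (log2 fold change 1.10, SE 0.24, adjusted p = 0.0402). Gnas lies in an imprinted locus with several transcripts, among them the antisense Nespas, and its tags were not separated by transcript. The call was lost in 11 of the 20 fits without 1 library, with an adjusted p of up to 0.143. It was the 1 called gene of 22 in the adrenergic list (median 0.10), in which the receptor Adrb3 had a log2 fold change of 0.18 (adjusted p = 0.917).

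Of the genes of the mitochondrial genome, the tRNA gene mt-Tc was called, and no gene of the list of mitochondrially encoded transcripts was. All 10 tested genes of that list, 8 of them messages and the others the ribosomal RNAs mt-Rnr1 and mt-Rnr2, had a positive fold change, 0 were called, 5 had an unadjusted p below 0.05, and the median was 0.56. mt-Nd2, a subunit of complex I, had 44272, 47371, 32693, 34179 and 39497 CPM in the high fat libraries, against 32814, 16352, 22592, 20179 and 27634 CPM in the normal diet libraries. The highest normal diet library was level with the lowest high fat library (log2 fold change 0.73, SE 0.19, adjusted p = 0.0988). mt-Cytb, of complex III, averaged 34867 ± 8037 CPM on high fat diet, against 23695 ± 2831 CPM on normal diet (SD, n = 5 each; adjusted p = 0.591). mt-Tc (chromosome M, 5192 to 5257, minus strand), the gene of the tRNA for cysteine, had fewer tags on high fat diet. Tags are from polyadenylated 3′ ends, and whether these came from the mature tRNA was not tested. mt-Tc had 24.6, 26.5, 21.5, 17.8 and 12.6 CPM in the high fat libraries, against 96.0, 40.9, 442, 366 and 265 CPM in the normal diet libraries. The high fat libraries were close together and all lower, while the normal diet libraries spread widely with the lowest in replicate 2 (log2 fold change -3.56, SE 0.61, adjusted p = 0.0154). In replicate 5, the normal diet library with little muscle RNA, mt-Tc stood far above every high fat library. Its log2 fold change was -3.68 without the libraries that carried muscle, a fit with 1 normal diet knockout library. With the muscle covariate it was -3.80 and not called (adjusted p = 0.0628). The call was also lost with the replicate block (adjusted p = 0.171) and was kept in 17 of the 20 fits without 1 library. Its 66 bases, from GENCODE on GRCm38, are shown whole, as the 1 tRNA among the called genes. Capitals mark the anticodon.
mt-Tc: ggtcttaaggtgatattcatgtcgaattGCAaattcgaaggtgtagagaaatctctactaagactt
Nuclear genes of the respiratory chain had smaller medians. In the complex I list 27 of 37 tested genes had a positive fold change and 0 were called (median 0.16), and in the list of complexes II to V 23 of 41 were positive and 0 were called (median 0.07).

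**Figure D4:**
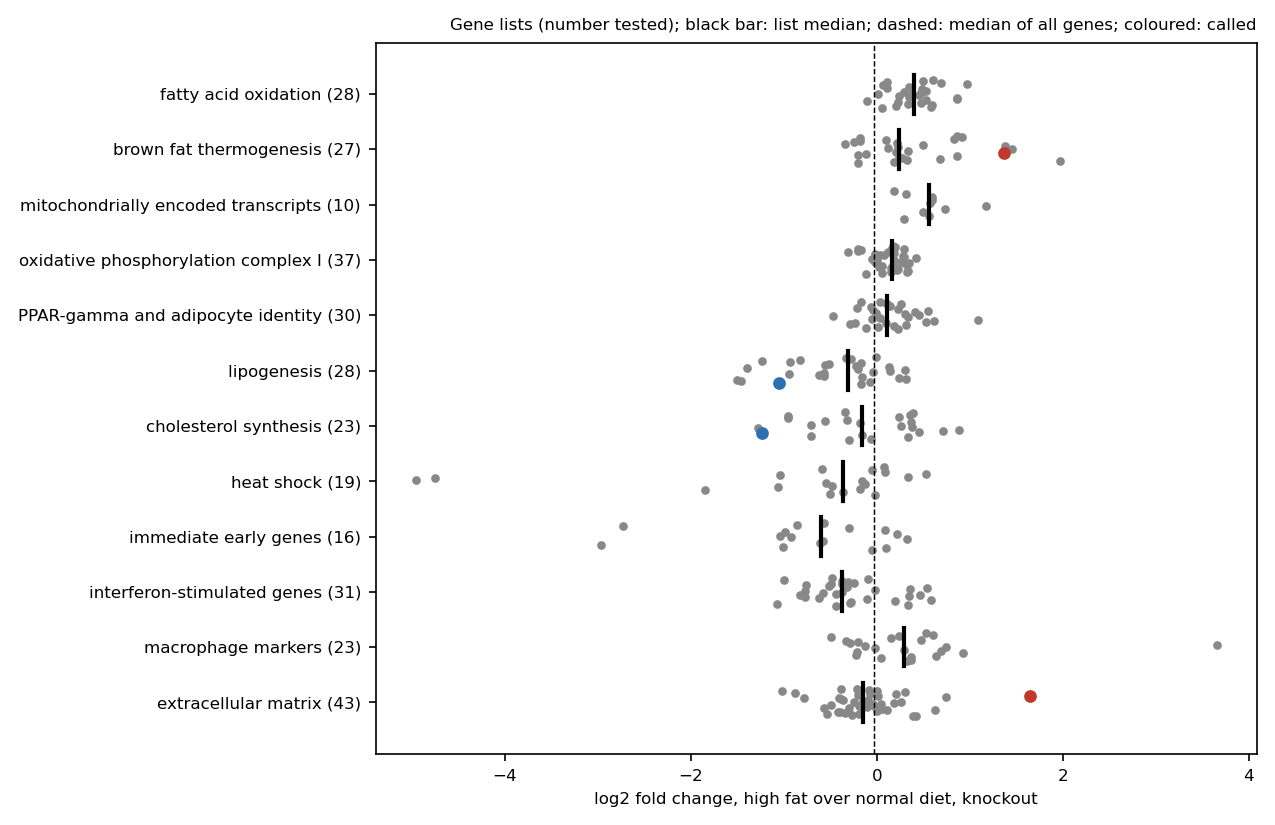
Log2 fold change of high fat over normal diet in knockout for each tested member of 12 gene lists (number tested in brackets), 1 point per gene. Black bars are list medians, the dashed line is the median of all genes (-0.03) and coloured points are called genes: Elovl3 in brown fat thermogenesis, Acaca in lipogenesis, Fdft1 in cholesterol synthesis and Loxl1 in extracellular matrix.

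Loxl1 (chromosome 9, 58287738 to 58313186), which crosslinks elastin, had the smallest adjusted p of the comparison. It had 72.8, 112, 71.5, 72.2 and 72.3 CPM in the high fat libraries, against 27.9, 18.9, 18.9, 24.2 and 37.9 CPM in the normal diet libraries. Apart from high fat replicate 2, which was the highest, the high fat libraries differed by less than 2 CPM, and all were well above the normal diet libraries (log2 fold change 1.65, SE 0.23, adjusted p = 0.00216). Its fold change was 1.51 with the muscle covariate, where it was the 1 call, and 1.08 without the libraries that carried muscle. In the extracellular matrix list Loxl1 was the 1 called gene of 43, 28 had a negative fold change, and the median was -0.15. The related enzyme Lox had a log2 fold change of 0.75 (adjusted p = 0.492). The proteoglycan Prelp averaged 91.9 ± 13.8 CPM on high fat diet, against 47.7 ± 11.1 CPM on normal diet (SD, n = 5 each; adjusted p = 0.0204). B3gat3, which completes the linker of glycosaminoglycan chains, averaged 35.6 ± 7.06 CPM on high fat diet, against 17.4 ± 2.91 CPM on normal diet (adjusted p = 0.0204). Both were chosen after their values were seen. Chst15, which sulfates chondroitin, was lower, with 17.9, 11.6, 8.76, 12.8 and 21.2 CPM in the high fat libraries, against 54.3, 29.1, 56.6, 26.4 and 21.4 CPM in the normal diet libraries. The lowest normal diet library was replicate 5, level with the highest high fat library (log2 fold change -1.38, SE 0.29, adjusted p = 0.0313), and without the libraries that carried muscle the fold change was -0.57.

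Bsg, basigin, the chaperone of lactate transporters, was higher on high fat diet and was chosen after its values were seen. It had 835, 946, 799, 765 and 766 CPM in the high fat libraries, against 422, 382, 468, 462 and 203 CPM in the normal diet libraries. The groups were far apart, with normal diet replicate 5 the lowest (log2 fold change 1.09, SE 0.20, adjusted p = 0.0154). Lgr6, a receptor of R-spondins, had 91.8, 95.1, 55.0, 65.0 and 91.2 CPM in the high fat libraries, against 37.7, 11.5, 25.2, 36.0 and 43.2 CPM in the normal diet libraries, without overlap (log2 fold change 1.37, SE 0.29, adjusted p = 0.0312). Ctsz, a lysosomal protease, had 164, 139.8, 120.4, 117 and 123 CPM in the high fat libraries, against 72.3, 28.6, 58.9, 69.8 and 31.7 CPM in the normal diet libraries. Its groups did not overlap (log2 fold change 1.34, SE 0.25, adjusted p = 0.0154), and Nelfcd shares exon bases with it on the opposite strand. S100a13, a calcium-binding protein, had 948, 818, 643, 659 and 774 CPM in the high fat libraries, against 457, 248.9, 417, 411 and 302 CPM in the normal diet libraries, also without overlap (log2 fold change 1.06, SE 0.20, adjusted p = 0.0154). Dock8, an exchange factor for small GTPases known mostly from immune cells, averaged 25.4 ± 7.69 CPM on high fat diet, against 8.82 ± 1.48 CPM on normal diet (SD, n = 5 each; adjusted p = 0.0271). Ube2m, the NEDD8-conjugating enzyme, Nipsnap1, a mitochondrial matrix protein, Slc43a2, a carrier of neutral amino acids, Tecpr1, of autophagy, and Yif1b, of transport to the Golgi, were also higher, with log2 fold changes of 1.09, 0.96, 1.16, 0.87 and 1.01. These 5 were chosen after their values were seen.

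Among lower genes, Ntrk3 (chromosome 7, 78175959 to 78738012), the receptor of neurotrophin 3, had 21.6, 22.7, 50.3, 20.02 and 23.4 CPM in the high fat libraries, against 88.4, 123, 87.7, 90.9 and 102 CPM in the normal diet libraries. High fat replicate 3 was well above the other high fat libraries and still below every normal diet library (log2 fold change -1.83, SE 0.33, adjusted p = 0.0154). The fold change was -1.74 with the covariate and -1.88 without the libraries that carried muscle. Schwann cell and neuron markers as a list showed 0 calls among 9 tested genes, and their summed level was 286.3 to 524.8 CPM on high fat diet and 195.2 to 268.6 CPM on normal diet, mostly from S100b, a calcium-binding protein that fat cells also express (log2 fold change 1.20, SE 0.29, adjusted p = 0.0702), and their part in the result for Ntrk3 was not tested. Impdh1, an enzyme of guanine nucleotide synthesis, had 19.9, 23.2, 19.2, 18.3 and 27.6 CPM in the high fat libraries, against 50.4, 56.3, 94.7, 42.4 and 51.5 CPM in the normal diet libraries, without overlap (log2 fold change -1.45, SE 0.27, adjusted p = 0.0154). Dgkd, a diacylglycerol kinase, had 59.4, 50.0, 55.2, 56.4 and 50.1 CPM in the high fat libraries, against 86.1, 124, 125, 95.4 and 90.2 CPM in the normal diet libraries, without overlap (log2 fold change -0.94, SE 0.17, adjusted p = 0.0154). Als2cl, a regulator of endosomes, had 1.88, 1.25, 2.00, 3.27 and 2.19 CPM in the high fat libraries, against 9.57, 8.91, 7.63, 7.75 and 7.62 CPM in the normal diet libraries, low in both groups and without overlap (log2 fold change -1.95, SE 0.41, adjusted p = 0.0312). Ccdc36 (chromosome 9, 108403611 to 108428484), known for a role in meiotic recombination, was close to absent on high fat diet, with 0.564, 0.715, 0.461, 0.272 and 0 CPM in the high fat libraries, against 6.47, 9.95, 37.9, 8.72 and 8.65 CPM in the normal diet libraries. Normal diet replicate 3 was the highest by far, and the other 4 normal diet libraries were also above all high fat libraries (log2 fold change -5.10, SE 0.85, adjusted p = 0.0122). Control libraries were low on both diets, with means of 0.357 CPM on high fat and 0.688 CPM on normal diet (log2 fold change -1.03, adjusted p = 0.618). Of the 4 group means, that of the knockout on normal diet was the highest, at 14.3 CPM. The difference of the diet effect between genotypes was not called for Ccdc36 (edgeR, unadjusted p = 0.00407, adjusted p = 0.605).

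Flywch1, a zinc finger protein, overlapped in 1 library, with 10.2, 7.86, 7.07, 7.36 and 5.55 CPM in the high fat libraries, against 17.2, 30.6, 23.5, 27.5 and 9.68 CPM in the normal diet libraries. Normal diet replicate 5 lay within the high fat range, and without the libraries that carried muscle the log2 fold change was -0.35, against -1.52 with them (SE 0.32, adjusted p = 0.0313). Rab6b and Slc43a2 were the other called genes with overlap. Cyp1a1, the cytochrome induced by aryl hydrocarbons, had 0 counts in all 5 high fat libraries and 66 counts in the normal diet libraries, 39 of them in replicate 2. Against a floor of 3 counts over the group it was at least 27.9-fold lower on high fat diet (adjusted p = 0.0347). Without normal diet replicate 2 this bound was 13.6-fold and the call was lost (adjusted p = 0.12), and the gene was called in 11 of the 20 fits without 1 library. Pdzk1ip1 averaged 0.126 ± 0.201 CPM on high fat diet, against 3.22 ± 2.67 CPM on normal diet (SD, n = 5 each; adjusted p = 0.0471). The remaining lower genes with a name were Atp8a1, a phospholipid flippase, Rab6b, a GTPase of the Golgi, and Ccdc137, Zfp467, Fam193b and Ivns1abp, with log2 fold changes of -1.25, -1.25, -1.17, -1.05, -1.01 and -0.78. These genes, Cyp1a1 and Pdzk1ip1 were chosen after their values were seen. Of the called genes, Bdh1, Prelp, Yif1b, Slc43a2, Dgkd, Als2cl, Flywch1, Chst15, Atp8a1 and Ivns1abp also share exon bases with a gene on the opposite strand.

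The last 4 called genes are predicted genes of unsettled biotype, and all 4 were lower on high fat diet. Each lies within an intron of a known gene on the same strand: Gm37084 in Mapkapk2, Gm37033 and Gm37390 in Itpkb, and Gm37474 in Fli1. Gm37033 (GRCm38, chromosome 1, 180357649 to 180364998) had 4.14, 5.004, 3.07, 4.77 and 3.53 CPM in the high fat libraries, against 12.7, 7.07, 19.7, 21.7 and 12.8 CPM in the normal diet libraries, without overlap (log2 fold change -1.85, SE 0.38, adjusted p = 0.023). The 3 host genes were not called, with log2 fold changes of 0.24 for Mapkapk2, 0.21 for Itpkb and -0.45 for Fli1. Over all 816 predicted genes tested, 477 had a negative fold change and the median was -0.12. These 7 genes were chosen after their values were seen.

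Lists of stress, immune and cell type genes held no called member, where the share over all genes tested was 0.372%, so little can be read from this. In the heat shock list 15 of 19 tested genes had a negative fold change and 6 an unadjusted p below 0.05 with a lower level on high fat diet (median -0.37). The inducible chaperone Hspa1b had 0.188, 0.357, 0.461, 0.817 and 0.168 CPM in the high fat libraries, against 0.563, 3.41, 14.8, 36.5 and 2.26 CPM in the normal diet libraries. Normal diet replicates 3 and 4 were the highest, and replicate 1 was within the high fat range (log2 fold change -4.75, SE 1.34, adjusted p = 0.178). Reads of Hspa1b and its near-identical copy Hspa1a can be split between them. The cochaperone Dnajb1 averaged 37.2 ± 8.78 CPM on high fat diet, against 77.8 ± 38.2 CPM on normal diet (SD, n = 5 each; adjusted p = 0.163). In the immediate early list 12 of 16 genes were negative (median -0.60), with Egr1, an early transcription factor, at 6.96, 6.61, 16.9, 9.40 and 5.55 CPM in the high fat libraries, against 53.8, 7.86, 50.0, 7.89 and 239 CPM in the normal diet libraries. Normal diet replicates 2 and 4 were within the high fat range (log2 fold change -2.97, SE 0.83, adjusted p = 0.185). In the list of interferon-stimulated genes 24 of 31 were negative (median -0.38). Of 23 macrophage markers 15 were positive (median 0.29), and their summed level was 183.5 to 277.1 CPM on high fat diet and 153.0 to 232.9 CPM on normal diet. The summed level of mast cell and granulocyte markers was 54.1 to 87.6 CPM on high fat diet and 31.4 to 49.8 CPM on normal diet, without overlap. Most of the difference was that of histidine decarboxylase, Hdc, which makes histamine, at a mean of 36.9 CPM on high fat diet and 16.5 CPM on normal diet (log2 fold change 1.16, SE 0.27, adjusted p = 0.0596). Without Hdc the sum was 20.01 to 41.2 CPM on high fat diet and 17.02 to 29.9 CPM on normal diet, with overlap. Of the 8 tested markers of this list 6 had a positive fold change, and the mast cell receptor Kit had the opposite sign, at 3.04 CPM on high fat diet and 6.53 CPM on normal diet (log2 fold change -1.11, adjusted p = 0.609), while S100a9, a calcium-binding protein of granulocytes, had a log2 fold change of -0.04 (adjusted p = 0.996). The mast cell proteases Cpa3, Cma1 and Mcpt4 were low in both groups and overlapped, with means of 3.59, 5.75 and 3.51 CPM on high fat diet and 1.83, 1.91 and 1.95 CPM on normal diet. Summed endothelial, fibroblast, smooth muscle, erythrocyte and lymphocyte markers overlapped between the diets. Over all 41 lists, 5 had a called member (brown fat thermogenesis, lipogenesis, cholesterol synthesis, adrenergic signalling and extracellular matrix). These members were Elovl3, Acaca, Fdft1, Gnas and Loxl1, out of 857 distinct listed genes tested, against 0.372% called over all genes. The number of lists with a called member was 2 without high fat replicate 1, 4 or 5. It was 3 without normal diet replicate 2, 3 or 4 or without control normal diet replicate 5, and 9 without control normal diet replicate 2.

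The same diets in control mice gave 96 called genes (0.795% of 12082). Of the 45 genes called in the knockout, 8 were called in control too (17.8% of the knockout calls and 8.33% of the control calls), and all 8 had the same direction: Prelp, Lgr6, Gnas, Ctsz, S100a13 and Fabp3 higher and Cyp1a1 and Flywch1 lower. Fabp3 had a log2 fold change of 1.35 (SE 0.23) in knockout and 1.32 (SE 0.23) in control libraries. Of the 45 genes, 44 had the same sign in control, and in 42 the control fold change was the smaller in size, the genes having been selected in the knockout. Loxl1 had 1.65 (SE 0.23) in knockout and 0.39 (SE 0.22) in control, with an unadjusted p of 0.000601 for the difference and an adjusted p of 0.605. Bdh1 had 4.29 in knockout and -0.14 in control (unadjusted p = 0.000642 for the difference), and mt-Tc -3.56 in knockout and -0.39 in control (unadjusted p = 0.00139). No difference of the diet effect between genotypes passed the test. edgeR called 0 of 12082 genes, with 772 at an unadjusted p below 0.05, a smallest adjusted p of 0.170, 12 calls by DESeq2, 1 call by edgeR without high fat control replicate 2 and 2 without normal diet control replicate 5. So no gene is shown here to follow diet in 1 genotype alone. The list medians that follow are for a part of the 41 lists, and their difference between genotypes was not tested. List medians side by side were 0.40 in knockout and 0.44 in control for fatty acid oxidation, -0.31 in knockout and -0.58 in control for lipogenesis, -0.37 in knockout and 0.19 in control for heat shock, -0.60 in knockout and 0.13 in control for immediate early genes, and -0.38 in knockout and 0.40 in control for interferon-stimulated genes. The control count was 33, 21, 251 and 46 without high fat control replicate 1, 2, 3 and 4, 206, 31, 358, 52 and 150 without normal diet control replicate 1 to 5, and 55 without high fat knockout replicate 4. The muscle genes summed to 14.9 to 4369 CPM in control libraries on high fat diet and to 122.6 to 32826 CPM in control libraries on normal diet.

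**Figure D5:**
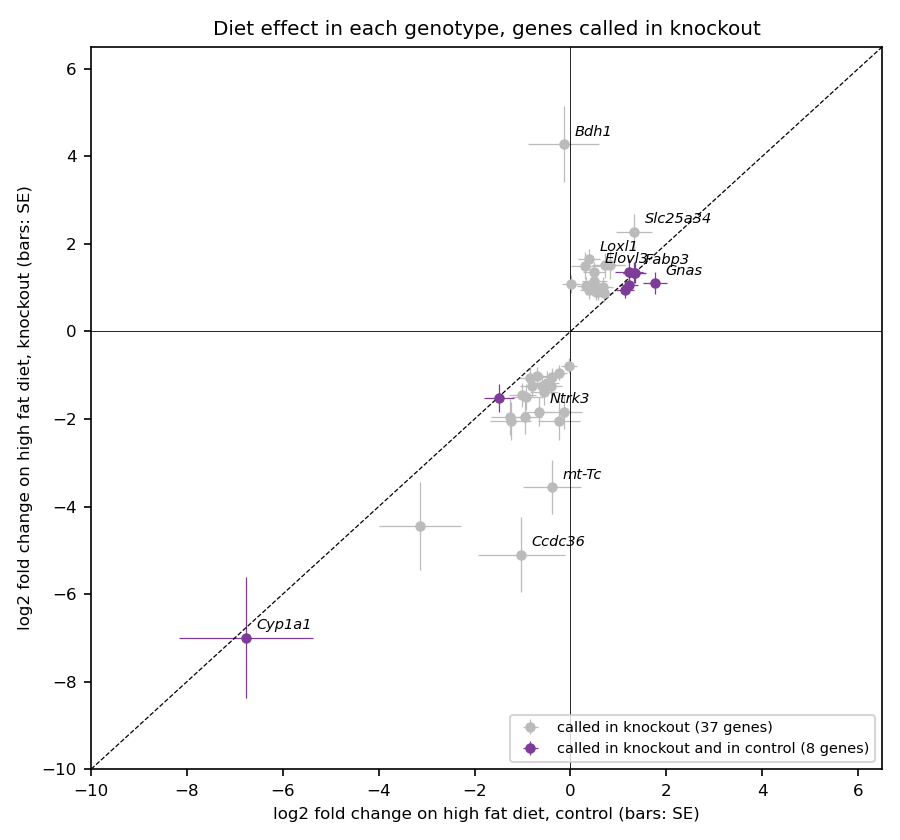
Log2 fold change of high fat over normal diet in knockout (vertical axis) and in control (horizontal axis) for the 45 genes called in the knockout, with SE bars and the line of equal change (dashed). The 8 purple genes were called in both genotypes, and Bdh1 is the 1 gene with opposite signs.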

How the data were processed

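Brown adipose tissue was measured in 20 libraries of experiment 2, in 4 groups of 5. The submitters' processing notes name the aligner STAR 2.5.3a, featureCounts, limma and the build mm10/GRCm38; the annotation and strand setting of the counting are not given in these sources. The authors deposited raw counts per gene and library, whole numbers without normalisation. Of the gene names in that file, 18 had become dates (0.09% of counts) and were left out. Columns were matched to samples by the number in each sample's description, with 0 sample columns unmatched. In every knockout library on high fat diet that number is lower than in every knockout library on normal diet; its meaning is not given, and anything that follows it cannot be told apart from diet.

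Genes were kept with filterByExpr (minimum count 10; 12082 of 13233 genes), scaled by TMM and tested with edgeR 4.0.16 (quasi-likelihood, robust dispersion, R 4.3.3) in 1 model of the 4 groups without covariates. Benjamini-Hochberg adjustment ran over the whole table, genes with an adjusted p below 0.05 are called, and each SE is the log2 fold change divided by the root of its F statistic. No pair of knockout libraries of 1 group agreed within sampling noise (lowest chi-square per gene 8.30 over 20 pairs). The alternatives used DESeq2 1.42.0 and limma 3.58.1. The muscle score is the mean log2 CPM (prior count 2) of 15 genes that define skeletal muscle. The procedure was tested on simulated data. Floors cover counting error only.

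The libraries, 41 gene lists and named genes were chosen with earlier results of these data known. The naming rule took the targeted genes, 10 core genes, the 8 highest and 8 lowest called fold changes and the 6 smallest adjusted p-values each way at a mean of 5 CPM or more, and 3 called members per list, without predicted genes, clones and muscle genes; genes outside it are marked. Coordinates are GENCODE vM21 on GRCm38, and promoters are from RefSeq. Some genes, among them 1 called gene, are not reported here.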

Additional observations from a re-analysis of the deposited data

Results flagged for a closer look

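In 7 of 118 groups of 5 knockout libraries examined (56 genes and 3 library measures on each diet), 1 library lay far from the other 4 on the log2 scale; chance alone marks about 1 group in 20. On high fat diet, Ucp1 was 11089 CPM in replicate 1 and 7054 to 7367 CPM in the others. Pparg was 23.9 CPM in high fat replicate 2, where the others had 66.6 to 82.9 CPM. Loxl1 was 111.7 CPM in high fat replicate 2, against 71.5 to 72.8 CPM in the others. Ntrk3 was 50.3 CPM in high fat replicate 3 and 20.02 to 23.4 CPM in the others, and Ccdc137 was 9.53 CPM there and 6.96 to 7.57 CPM in the others. On normal diet, Ccdc36 was 37.9 CPM in replicate 3 and 6.47 to 9.95 CPM in the others, and Bsg was 202.8 CPM in replicate 5 and 382 to 468 CPM in the others. Of the called genes among these, Loxl1 was called in all 20 fits that left out 1 library, Ccdc36 and Bsg in 19 each, Ntrk3 in 17 and Ccdc137 in 7. High fat replicate 2 also differed most from its own group by counts, with a chi-square per gene of 64.6 to 88.3 in pairs with it and 8.30 to 30.5 in the other pairs of high fat libraries.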

How the results depend on the processing

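The sign of the 42 called genes without overlap was largely fixed in advance where libraries were left out. No setting reversed any of the 45 called genes. Their number was 166 with DESeq2, 142 with the 10 knockout libraries alone, 25 with the replicate block, 1 with the muscle covariate and 3 without the 10 libraries that carried muscle, an alternative added after seeing the data, in which the lone normal diet knockout library was assumed to vary like the others; it was 6 to 67 without 1 library and 41 to 48 in the remaining settings. Elovl3, Slc25a34, Loxl1 and Fabp3 were called in all 20 fits without 1 library, and 0 genes in all 11 other settings. The control count was 502 with DESeq2, 54 with voom, 151 with non-robust dispersion, 45 with the replicate block, 2 with the covariate and 21 to 358 without 1 library. The difference between genotypes gave 12 calls with DESeq2 and 0 to 2 without 1 library. Lists with a called member numbered 14 with DESeq2, 3 with non-robust dispersion, 12 with knockout libraries alone, 1 with the covariate, 1 without libraries that carried muscle, and 2 to 9 without 1 library. Same-numbered libraries of the 2 diets deviated together in 1 of 5 pairs (r above 0.1), so the numbers were not read as pairs. Log2 fold changes of uncalled genes that changed sign were those of Suv420h1 (0.011 without a filter, 0.018 with voom, 0.0085 with the block, -0.13 to 0.13 without 1 library), Lep (0.15 with voom, 0.42 with the block, -0.66 to 1.63 without 1 library), Ppargc1a (0.026 with the covariate, 1.08 without libraries that carried muscle, -0.45 to 0.17 without 1 library), Dio2 (0.90 without libraries that carried muscle, -0.52 to 0.089 without 1 library) and Pparg (-0.24 without libraries that carried muscle). Of list medians, 46 of 1268 moved by over 1 SD. The causes were not tested.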
